A study of Mus musculus with 7 samples.

Results

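The TGF-beta pathway was followed through the open chromatin of 10 genes: the ligand gene Tgfb1, the receptor genes Tgfbr1 and Tgfbr2, and the Smad genes Smad1 to Smad7. The rule that defines the set names the genes and uses no measured value. They were taken from 19666 protein-coding mouse genes with a known transcription start. Peaks of accessible chromatin were taken within the span of each gene plus 10 kb on both sides, 816 kb in all, and a promoter was the start ± 1 kb. These windows held 62 to 79 peaks in a library. Merged over the libraries, they made 98 of the 95163 regions in the genome.

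TGF-beta binds TGFBR2, a serine/threonine kinase that then phosphorylates TGFBR1. TGFBR1 in turn phosphorylates SMAD2 and SMAD3, which join SMAD4 and enter the nucleus as transcription factors. SMAD1 and SMAD5 serve the BMP arm of the family in the same way, while SMAD6 and SMAD7 are induced by the pathway and hold it back. In muscle the pathway is known for restraining myogenic differentiation and for driving fibrosis, and the receptor TGFBR1 is a known substrate of the ubiquitin ligase NEDD4L.

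ATAC-seq, which cuts and tags DNA with the Tn5 transposase where chromatin is open, was carried out on hindlimb muscle stem cells (MuSCs) straight from the sort, with 5000 cells in each library. The 4 Nedd4L-cKO libraries came from mice of the line Nedd4L fl/fl Pax7 cre/+ on a C57BL/6 background. Their Cre is expressed from Pax7 and removes a floxed exon for part of the catalytic domain. The loss thus extends to the descendants of Pax7-expressing cells, and the transcript is still made. The 3 WT libraries came from mice labelled Nedd4L-WT, whose alleles at Nedd4L and Pax7 are not given in the sources used here. All were male mice aged 5 to 6 weeks. The question for these genes was whether the loss of the ligase goes with another state of chromatin at the pathway's own loci.

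Of 28.4 to 42.4 M tags in a library, peak calling kept 14.4 to 20.1 M, at most 1 per position. The kept part was uneven, for example 15.0 of 36.2 M in Nedd4L-cKO replicate 1 and 17.1 of 31.3 M in WT replicate 2. The libraries held 69302 to 79158 peaks. All 10 promoters of the muscle stem cell marker list, Pax7 and Myf5 among them, were open in every library. None of the 6 immune promoters was open in any, among them Ptprc for CD45, on which the sort excluded cells. Of the other cell types, 1 of 4 endothelial promoters (Kdr), 1 of 4 fibro-adipogenic promoters (Dpp4) and 3 of 4 myofiber promoters (Acta1, Myh4 and Myh1) were open in all libraries, and Dcn and Ckm were open in 5 of 7. Pecam1 for CD31 and Ly6a for SCA1 had no promoter peak in any library. The start used is the outer end of the gene span, so a missing promoter peak does not mean a closed locus. The Pecam1 locus held 8 to 9 peaks in a library, Cdh5 3 to 6, Pdgfra 6 to 7 and Ly6a 1 to 2, whereas Ptprc held 0. The calls do not check the deletion, which removes 1 exon, and the Nedd4l locus held 31 to 35 peaks in a library. One library, WT replicate 3, was sequenced on another lane than the rest.

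Every member was open at its promoter. All 10 promoters held exactly 1 peak in each of the 7 libraries, whereas 63.6% of all protein-coding promoters had a peak in all 7. The promoters therefore give no difference in calls between genotypes, and what could differ is the rank of each peak. MACS2 gives every peak a pileup, the coverage of extended tags, and a fold enrichment, the ratio of pileup to the local background. Both were turned into percentiles within each library, from 0 for its lowest to 100 for its highest peak. A higher rank can come from more cells with open chromatin or from more cuts per cell, which bulk libraries cannot tell apart.

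The promoter sequences are shown for the members on which the comparison of promoters turns: the ligand, both receptors, and the Smads with the widest, densest or most motif-rich start. Each line runs from 250 bases before an annotated start through the first 30 bases of the transcript, on the strand of the gene, from RefSeq on GRCm38.p6. Of the 10 members, 7 had an entry. Capitals mark a GC box (GGGCGG or CCGCCC, both strands) or, at Smad6, the Smad palindrome GTCTAGAC. Adjacent GC boxes at Smad5 overlap.
Tgfb1, chr7:25686752-25687031, plus strand: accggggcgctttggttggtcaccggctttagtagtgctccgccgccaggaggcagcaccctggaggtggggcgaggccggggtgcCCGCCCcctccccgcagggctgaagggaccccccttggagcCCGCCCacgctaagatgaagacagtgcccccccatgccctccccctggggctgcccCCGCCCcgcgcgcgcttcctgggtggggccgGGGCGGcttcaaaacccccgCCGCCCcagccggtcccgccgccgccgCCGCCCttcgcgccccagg
Tgfbr1 outer start, chr4:47352972-47353251, plus strand: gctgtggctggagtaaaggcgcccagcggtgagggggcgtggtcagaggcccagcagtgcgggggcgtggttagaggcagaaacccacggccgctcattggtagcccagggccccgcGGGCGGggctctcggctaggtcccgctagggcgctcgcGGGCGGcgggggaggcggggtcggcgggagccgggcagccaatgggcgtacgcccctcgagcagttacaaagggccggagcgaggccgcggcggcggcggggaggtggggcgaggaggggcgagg
Tgfbr1 inner start, chr4:47385966-47386245, plus strand: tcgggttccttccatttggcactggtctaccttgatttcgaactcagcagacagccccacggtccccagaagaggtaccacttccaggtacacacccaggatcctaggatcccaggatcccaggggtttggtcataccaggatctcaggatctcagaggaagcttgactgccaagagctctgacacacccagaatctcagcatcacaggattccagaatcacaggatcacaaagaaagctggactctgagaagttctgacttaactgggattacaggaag
Tgfbr2, chr9:116175334-116175613, minus strand: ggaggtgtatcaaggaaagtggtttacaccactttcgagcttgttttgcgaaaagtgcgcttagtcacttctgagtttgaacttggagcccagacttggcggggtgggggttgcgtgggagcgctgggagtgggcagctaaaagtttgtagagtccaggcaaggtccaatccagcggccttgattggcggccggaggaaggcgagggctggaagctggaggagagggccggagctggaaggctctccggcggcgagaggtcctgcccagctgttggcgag
Smad3, chr9:63757965-63758244, minus strand: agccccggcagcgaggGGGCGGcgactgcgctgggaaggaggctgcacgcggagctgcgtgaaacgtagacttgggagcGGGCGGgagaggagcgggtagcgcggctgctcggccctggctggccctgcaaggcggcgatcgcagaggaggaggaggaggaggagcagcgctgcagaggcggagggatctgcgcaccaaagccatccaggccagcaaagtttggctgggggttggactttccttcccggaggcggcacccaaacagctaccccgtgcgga
Smad5 innermost start, chr13:56703418-56703697, plus strand: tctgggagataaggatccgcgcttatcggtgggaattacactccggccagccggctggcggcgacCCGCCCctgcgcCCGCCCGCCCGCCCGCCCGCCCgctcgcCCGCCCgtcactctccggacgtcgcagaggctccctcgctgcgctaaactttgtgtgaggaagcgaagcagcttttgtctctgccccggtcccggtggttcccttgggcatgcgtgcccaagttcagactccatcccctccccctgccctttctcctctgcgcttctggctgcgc
Smad6, chr9:64022030-64022309, minus strand: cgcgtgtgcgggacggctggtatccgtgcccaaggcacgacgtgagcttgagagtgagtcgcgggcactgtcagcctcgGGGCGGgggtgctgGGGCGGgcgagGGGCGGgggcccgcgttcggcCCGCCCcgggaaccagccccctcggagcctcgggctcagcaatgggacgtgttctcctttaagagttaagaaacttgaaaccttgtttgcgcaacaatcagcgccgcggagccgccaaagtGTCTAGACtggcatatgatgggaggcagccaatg

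The open starts all held more CG dinucleotides than the median annotated start. The 9 annotated starts of the 7 genes that lay under a peak in at least 6 libraries held 15 to 33 CG dinucleotides in these 280 bases, with 15 at Tgfbr2 and 33 at the outer start of Tgfbr1. The median over the 32817 annotated starts of the table was 6, with quartiles of 2 and 19, so that Tgfbr2 lay below the upper quartile. These starts were not split into open and closed ones. Tgfbr1 has a further annotated start 32994 bp inside the gene, which held 3 CG dinucleotides and lay under no peak in any library. The only start of the receptor gene that was open was thus its outer one.

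GC boxes, which SP1-type factors are known to bind, were found 6 times at Tgfb1, 7 times at the innermost start of Smad5 and 4 times at Smad6. Smad3 and the outer start of Tgfbr1 held 2 each, and Smad1 and the outer and middle starts of Smad5 held 1 each. None was found at Tgfbr2 or the inner start of Tgfbr1. At least 1 was found at 34.7% of all annotated starts. The Smad palindrome, the full-length sequence that SMAD3 and SMAD4 were shown to bind, was found at Smad6 alone among the members' starts, and at 0.192% of all starts. It began at position -4 from the annotated start of the printed sequence, which lies 26 bp inside the outer start used for the Smad6 promoter. The motif CAGAC (or GTCTG), a Smad half-site, was found at Tgfbr2, at the inner start of Tgfbr1 and at the innermost start of Smad5, against 46.8% of all starts. GGCGCC, a GC-rich Smad site, was found at the outer start of Tgfbr1 and at the outer and middle starts of Smad5, against 10.9%. No member start held the AP-1 motif TGANTCA, which 7.47% of all starts held. CANNTG, the E box of MYOD1 and related factors, was found at Smad6, Tgfbr2, the inner start of Tgfbr1 and the outer and middle starts of Smad5, against 70.1% of all starts.

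Among the promoters, the ligand ranked in the middle by pileup and low by fold enrichment. Tgfb1 (gene ID 21803, chr7:25687002-25705077, mm10) encodes TGF-beta 1. Its promoter peak stood at the pileup percentiles 87.0, 86.5, 80.4 and 84.3 in Nedd4L-cKO replicates 1 to 4 and 84.8, 86.7 and 87.1 in WT replicates 1 to 3. The groups overlapped, with Nedd4L-cKO replicate 3 the lowest. By fold enrichment its percentiles were 26.4, 19.1, 21.6 and 15.8 in the Nedd4L-cKO and 16.8, 17.6 and 20.5 in the WT libraries, and the groups overlapped again. The Tgfb1 peak was 2642 to 3020 bp long, longer than 98.7% of the 12500 promoter peaks open in all libraries. It lay almost wholly inside the gene, from between -271 and 22 bp to between 2647 and 2813 bp of the start, so that in Nedd4L-cKO replicate 2 it did not reach the start itself.

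The receptors differed from each other in both ranks. TGFBR1, the type I receptor, transmits the signal to the Smads. The promoter peak of its gene (gene ID 21812, chr4:47353222-47414926) had the pileup percentiles 90.6, 91.8, 90.1 and 93.2 in the Nedd4L-cKO and 90.8, 91.3 and 87.8 in the WT libraries. By fold enrichment it stood at 41.2, 47.7, 53.1 and 49.1 in the Nedd4L-cKO and at 37.6, 40.8 and 35.9 in the WT libraries. All 4 Nedd4L-cKO libraries were above all 3 WT libraries by fold enrichment, which by this measure was so for 4.76% of all shared regions in either direction. By pileup the groups overlapped.

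Normal scores place the ranks of a library on a standard normal scale, whose unit is its standard deviation. In these normal-score units the Tgfbr1 promoter was 0.25 ± 0.17 (SE) higher in Nedd4L-cKO by fold enrichment and 0.09 ± 0.09 (SE) higher by pileup (n = 4 and 3). Neither difference passed limma's test across all shared regions (unadjusted p = 0.167 and 0.36, adjusted p = 1.00 for both).

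TGFBR2, the type II receptor, binds the ligand first. The promoter of its gene (gene ID 21813, chr9:116087695-116175363) ranked higher, with the pileup percentiles 96.2, 93.7, 95.7 and 95.3 in the Nedd4L-cKO and 94.9, 96.4 and 96.3 in the WT libraries. Its fold percentiles were 89.0, 80.5, 91.0 and 86.6 in the Nedd4L-cKO and 85.2, 85.8 and 85.8 in the WT libraries. Both ranks overlapped between the genotypes. In all 7 libraries Tgfbr2 was above Smad4, the member next below it by fold enrichment, and their ranges did not overlap.

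**Figure D1:**
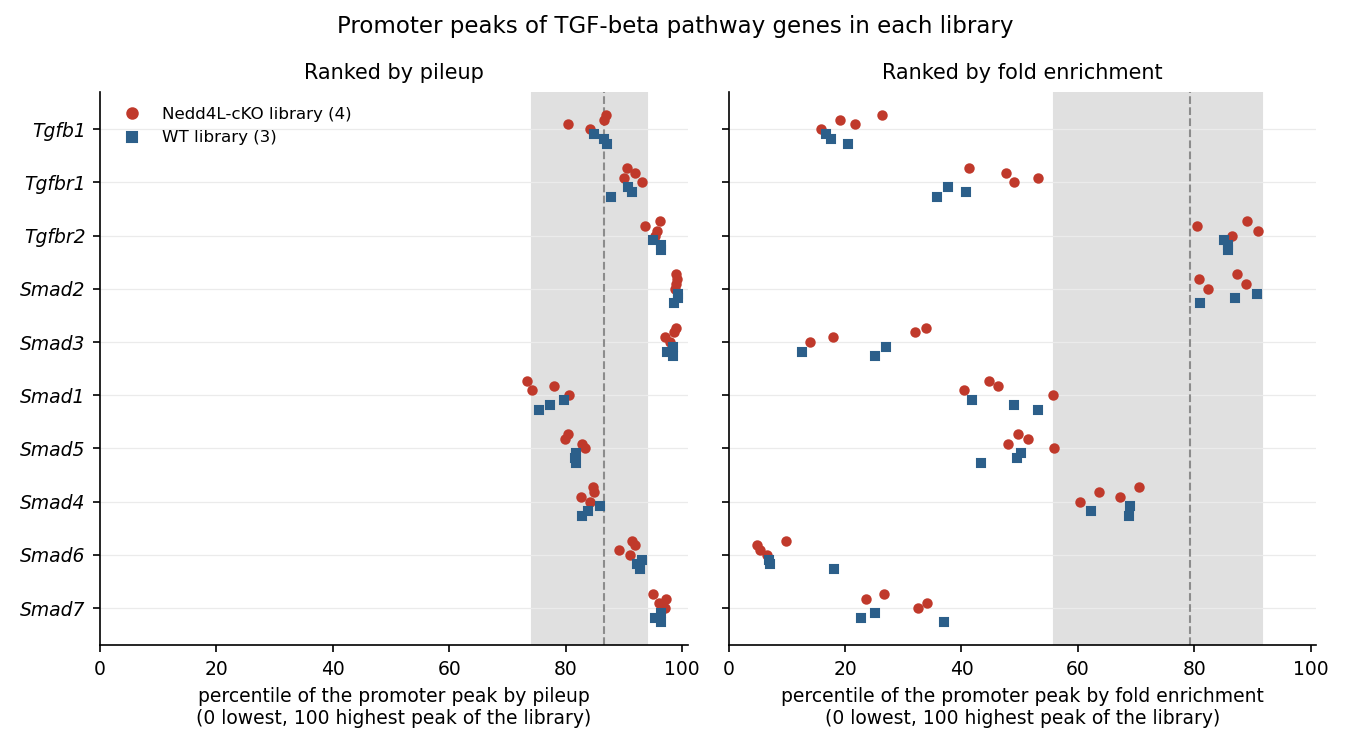
Percentile of each member's promoter peak by pileup (left) and by fold enrichment (right), from 0 to 100, with 1 point per library (red circles for 4 Nedd4L-cKO, blue squares for 3 WT libraries). The grey band and dashed line are the quartiles and the median of the 12500 promoters open in all libraries (74.3, 86.6 and 93.9 by pileup, 55.8, 79.2 and 91.7 by fold enrichment). By pileup the members lie in or above the band, apart from single libraries of Smad1, and by fold enrichment 7 of 10 medians lie below it.

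Smad2 and Smad3, the Smads that TGFBR1 phosphorylates, had the strongest promoters of the set by pileup. For Smad2 (gene ID 17126, chr18:76241090-76311748) the pileup percentile was 98.9 to 99.1 over the Nedd4L-cKO and 98.5 to 99.3 over the WT libraries. Its fold percentile was 80.8 to 88.9 and 80.9 to 90.9, so that Smad2 also had the highest median of the set by fold enrichment, though Tgfbr2 was above it in 4 of 7 libraries. The Smad2 peak began near the start, between -245 and 30 bp, and did not reach it in WT replicates 1 and 2.

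Smad3 (gene ID 17127, chr9:63646766-63757994) had the pileup percentiles 99.0, 98.6, 97.1 and 98.0 in the Nedd4L-cKO and 98.4, 97.4 and 98.4 in the WT libraries. By fold enrichment, however, it stood at only 33.9, 32.0, 17.9 and 13.9 in the Nedd4L-cKO and at 27.1, 12.6 and 25.2 in the WT libraries. Libraries of both genotypes were found at both ends of this range. The promoters of Smad2 and Smad3 were thus close by one measure and far apart by the other, in every library.

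The Smads of the BMP arm had weaker promoter peaks by pileup, though not by fold enrichment. By fold enrichment their medians, 46.3 for Smad1 and 49.7 for Smad5, lay between those of Smad3 (25.2) and Smad2 (87.1). Smad1 (gene ID 17125, chr8:79338395-79399428) ranked lowest of the set by pileup, at 73.4 to 80.5 over the Nedd4L-cKO and 75.5 to 79.7 over the WT libraries. Its fold percentile was 40.5 to 55.8 and 41.7 to 53.1. Smad5 (gene ID 17129, chr13:56703010-56742378) followed at pileup percentiles of 79.9 to 83.3 and 81.5 to 81.8, and at fold percentiles of 48.0 to 55.8 and 43.3 to 50.2. A single peak of 1558 to 1849 bp covered all 3 annotated starts of Smad5 in every library. Smad4 (gene ID 17128, chr18:73634790-73703791), the partner of both arms, stood at pileup percentiles of 82.7 to 84.8 and 82.9 to 85.8, and at fold percentiles of 60.3 to 70.4 and 62.3 to 68.9. All of these ranges overlapped between the genotypes.

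The inhibitory Smads combined a pileup above the median open promoter (86.6) with a fold enrichment below the lower quartile (55.8). Smad3 and Tgfbr1 did so as well. Smad6 (gene ID 17130, chr9:63953076-64022085), which acts mainly on the BMP arm, had the pileup percentiles 91.4, 91.9, 89.1 and 91.1 in the Nedd4L-cKO and 93.1, 92.3 and 92.8 in the WT libraries. All WT libraries were above all Nedd4L-cKO libraries, and by this measure the groups did not overlap, in either direction, in 3.6% of all shared regions. The Smad6 promoter was lower by 0.13 ± 0.09 (SE) normal-score units in Nedd4L-cKO (n = 4 and 3), which did not pass limma's test (unadjusted p = 0.173, adjusted p = 1.00).

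By fold enrichment the Smad6 promoter was the lowest of the set, at 9.86, 4.83, 5.43 and 6.50 in the Nedd4L-cKO and 6.89, 7.14 and 18.03 in the WT libraries, with groups that overlapped. Only 2.60% of promoters open in all libraries had a lower median by fold enrichment. Smad7 (gene ID 17131, chr18:75367365-75395935), which blocks TGFBR1 and recruits ubiquitin ligases to it, had the pileup percentiles 95.0, 97.2, 96.0 and 97.0 in the Nedd4L-cKO and 96.4, 95.4 and 96.3 in the WT libraries. Its fold percentiles were 26.7, 23.6, 34.1 and 32.5 in the Nedd4L-cKO and 25.1, 22.7 and 37.1 in the WT libraries. Both ranks of Smad7 overlapped between the genotypes.

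From the highest to the lowest median pileup percentile the order was Smad2, Smad3, Smad7, Tgfbr2, Smad6, Tgfbr1, Tgfb1, Smad4, Smad5 and Smad1. Of neighbours in this order, only Tgfbr2 and Smad6, and Tgfbr1 and Tgfb1, had ranges over the 7 libraries that did not overlap. By fold enrichment the order was Smad2, Tgfbr2, Smad4, Smad5, Smad1, Tgfbr1, Smad7, Smad3, Tgfb1 and Smad6. Here only Tgfbr2 and Smad4, and Smad4 and Smad5, did not overlap. The orders had little in common (Spearman's rho = 0.030 over the 10 members, which share the libraries), and over the 12500 promoters open in all libraries rho was 0.233.

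Longer promoter peaks had lower fold enrichment among the members (Spearman's rho = -0.794 over 10 members). Over all 12500 promoters rho was -0.344. The 3 members with more than 1 narrow peak inside the broad one in most libraries, Tgfb1 with 2 or 3, Smad6 with 2 or 3 and Smad1 with 1 or 2, were also the longest by median length, at 2820, 2893 and 2068 bp. The median length over all 12500 was 1316 bp. The Smad1 peak was 2068, 2137, 2110 and 2107 bp long in the Nedd4L-cKO and 2061, 2040 and 1885 bp in the WT libraries. It was thus longer in every Nedd4L-cKO library than in any WT library, whereas the lengths of the other 9 members overlapped between the genotypes. Lengths did not overlap, in either direction, at 4.38% of the 12500 promoters, and the difference at Smad1 was not tested. The other promoters held 1 narrow peak in every library, except for 2 at Smad3 in Nedd4L-cKO replicate 3.

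**Figure D2:**
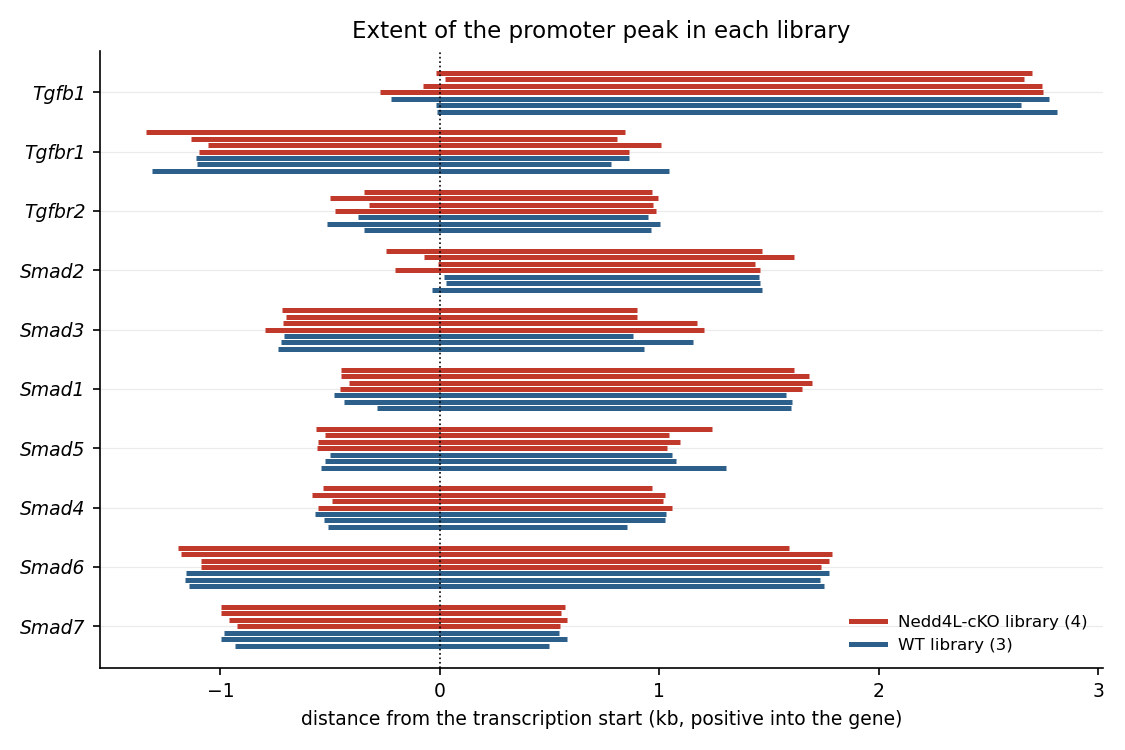
Extent of the promoter peak of each member relative to the transcription start (kb, positive into the gene), with 1 line per library (red for 4 Nedd4L-cKO, blue for 3 WT libraries). The Tgfb1 and Smad2 peaks begin close to the start and extend into the gene, and the Smad7 peak lies mostly before the start.

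Over all members, no promoter shift passed the test. By fold enrichment the promoter differences between genotypes were -0.17 at Smad6 to 0.25 at Tgfbr1, with 6 promoters higher and 4 lower in Nedd4L-cKO. By pileup they were -0.13 at Smad6 to 0.09 at Tgfbr1, with 3 higher and 7 lower. The unadjusted p of limma was 0.167 to 0.983 by fold enrichment and 0.173 to 0.951 by pileup. A typical standard error was 0.18 by fold enrichment and 0.10 by pileup (medians over 10 promoters), and shifts larger than that did not pass even the unadjusted test, as at Tgfbr1 by fold enrichment and Smad6 by pileup.

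Outside the promoters the loci differed widely in how much open chromatin they held. The 98 regions comprised 10 at promoters, 75 in gene bodies, 5 upstream and 8 downstream. Of them 52 were called in all 7 libraries, 33 in some and 13 in 1, against 56% of all regions called in all libraries. Regions called in all libraries had a median pileup percentile of 79.6 and those called in 1 library one of 8.31. Only 1 of the 98 lay at the start of another gene, the region 6.26 kb upstream of Tgfb1, which holds the starts of Tmem91 and B9d2.

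**Figure D3:**
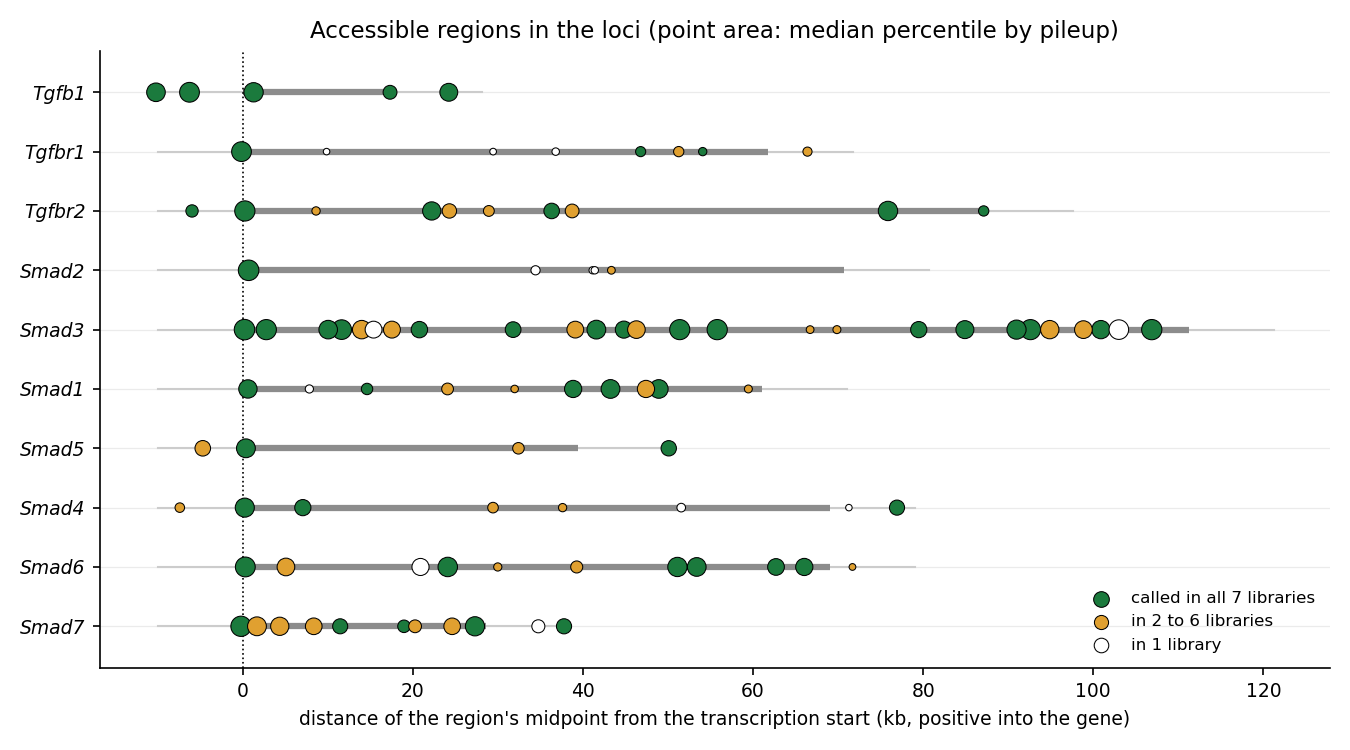
Position of the 98 regions relative to the transcription start of each member (kb, positive into the gene), with the gene as a thick grey line and 10 kb on both sides as a thin one. Green points were called in all 7 libraries, orange ones in 2 to 6 and white ones in 1, and the area of a point grows with its median pileup percentile. Smad3 is filled with regions along its whole length, whereas Smad2 has its promoter as its only green point.

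Smad3 held the most peaks. There were 26 regions in its locus, 16 of them called in all libraries, and 21, 21, 18 and 21 peaks in the Nedd4L-cKO and 18, 22 and 20 in the WT libraries. The groups overlapped. This was 15.3 peaks per 100 kb, more than in 95.0% of the 17440 gene loci with a peak in any library. The strongest region outside its promoter lay 107 kb into the gene (chr9:63650237-63652005), near its far end. Its pileup percentiles were 95.8, 95.1, 96.0 and 98.3 in the Nedd4L-cKO and 96.7, 95.7 and 97.1 in the WT libraries, with groups that overlapped.

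Smad2, which has nearly the same place in the pathway as Smad3, was the sparsest. Its locus held 1, 2, 2 and 3 peaks in the Nedd4L-cKO and 2, 1 and 3 in the WT libraries, and its promoter was the only one of 5 regions that all libraries called. It had 2.21 peaks per 100 kb, more than in 13.8% of gene loci. The next most often called region, 43.3 kb into the gene, was called in 4 libraries, 3 of them Nedd4L-cKO.

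Smad7 and Tgfb1 were dense as well, at 15.6 and 12.4 peaks per 100 kb. The Smad7 locus held 10, 7, 6 and 8 peaks in the Nedd4L-cKO and 8, 6 and 8 in the WT libraries, and its strongest region outside the promoter lay 27.3 kb into the gene (chr18:75393884-75395448, median pileup percentile 85.5). At Tgfb1 there were 5, 4, 4 and 5 against 6, 4 and 5 peaks. Peaks covered 17.9% of the Tgfb1 window, more than in 97.4% of gene loci. All 5 regions that overlapped the window were called in every library. The farthest upstream of them (chr7:25676369-25677225) crosses the window's edge at chr7:25677002, and a peak in it that lies outside the window is not among the peaks counted.

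Smad6 held 9, 6, 6 and 11 peaks in the Nedd4L-cKO and 7, 7 and 8 in the WT libraries, so that the Nedd4L-cKO libraries lay on both sides of the WT ones. Its strongest region outside the promoter lay 24.1 kb into the gene (chr9:63997246-63998722) at a median pileup percentile of 88.0. Smad1 held 7, 7, 6 and 10 against 9, 7 and 6 peaks, with the strongest at 43.2 kb (chr8:79355633-79356756, median pileup percentile 81.2), above its own promoter in 6 of 7 libraries. The locus of Smad4 held 5, 6, 6 and 5 against 5, 6 and 7 peaks, with the strongest at 7.06 kb (chr18:73695943-73697517, 58.2). Smad5 held 3, 2, 2 and 3 against 3, 3 and 3, with its only shared region outside the promoter downstream of the gene, 50.1 kb from the start (chr13:56752331-56753858, 51.5). Most of that region lies beyond the Smad5 window, which ends at chr13:56752378, so a library's peak in it need not be among the peaks counted.

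The receptor genes again differed. Tgfbr2 held 9, 8, 8 and 8 peaks in the Nedd4L-cKO and 9, 9 and 9 in the WT libraries, and 5 regions outside its promoter were called in all libraries. The strongest of these lay 75.9 kb into the gene (chr9:116098703-116100302), with pileup percentiles of 79.3, 83.1, 92.3 and 88.0 against 90.3, 87.0 and 84.5. Tgfbr1 held 4, 4, 4 and 5 against 5, 4 and 6 peaks, and its 2 shared regions outside the promoter were weak. The stronger of them, 46.8 kb into the gene (chr4:47399636-47400371), had a median pileup percentile of 17.3.

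**Figure D4:**
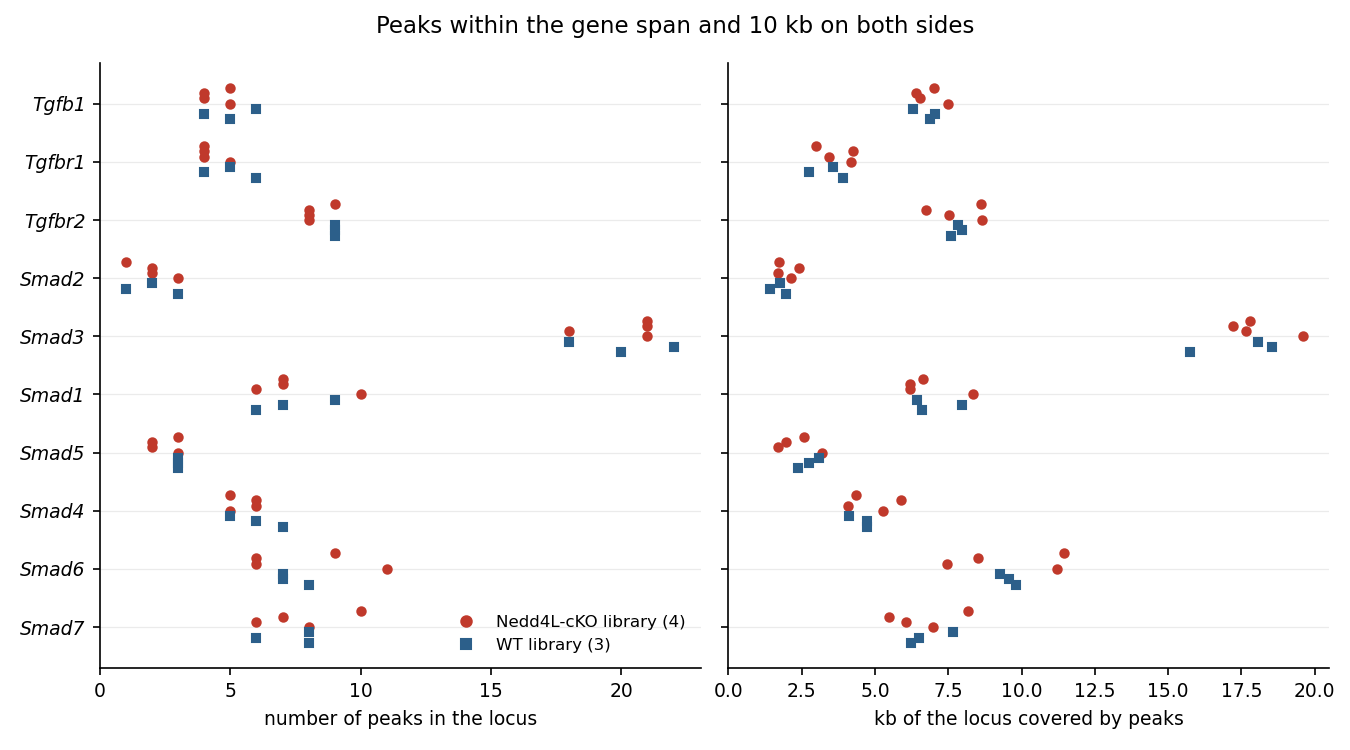
Number of peaks (left) and kb covered by peaks (right) within each gene span plus 10 kb on both sides, with 1 point per library (red circles for 4 Nedd4L-cKO, blue squares for 3 WT libraries). Smad3 holds 18 to 22 peaks and Smad2 1 to 3, and at each member the genotypes overlap in both measures.

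For no member did the genotypes part in the number of peaks. Peak numbers of the groups overlapped at all 10 loci, and did not overlap at 0.487% of the 17440 gene loci. Two-sided exact permutation tests over all 35 assignments of the libraries to groups of 4 and 3, where the smallest possible p is 0.0286, gave p = 0.143 at Tgfbr2 and 0.371 at Tgfbr1. At the other 8 loci p was 0.429 to 1. Adjusted over all gene loci by Benjamini-Hochberg, p was 1 for each member, and 0% of loci passed. With the smallest possible p of 0.0286, a locus could pass only if most of the 17440 loci reached it. The adjusted result therefore decides nothing about a single locus. In kb covered, p was 0.343 to 1 in the same exact test.

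Calls alone also set no member region apart by genotype. None of the 98 regions was called in all Nedd4L-cKO and no WT library, which held for 0.0694% of all regions. Likewise none was called in all WT and no Nedd4L-cKO library, against 0.082% of all regions. At the Smad7 locus, for example, the regions 1.67 and 20.3 kb into the gene were each called in 4 libraries, 3 of them Nedd4L-cKO, and at Smad3 a region 46.3 kb into the gene was called in 2 Nedd4L-cKO and 0 WT libraries. These regions were chosen after their calls were seen.

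The ranks of the 52 shared regions were compared by limma across all 53245 shared regions. By fold enrichment 0% of all regions and none of the 52 passed at an adjusted p under 0.05. At an unadjusted p under 0.05 there were 2 of 52, 1 higher and 1 lower in Nedd4L-cKO, against 3.98% of all regions. By pileup, too, 0% of all regions and none of the 52 passed. The unadjusted test gave 2 of 52 there, against 2.71% of all regions. The groups did not overlap in 6 of the 52 by fold enrichment and in 4 by pileup, and the difference between these shares and those over all regions (4.76% and 3.6%) was not tested. Of the 6 regions, 4 were higher in Nedd4L-cKO, and 3 of these belonged to Smad7.

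The lowest p of the set belonged to a region inside Smad7, 18.96 kb from the start (chr18:75385985-75386657). Its fold percentiles were 25.7, 24.2, 28.1 and 33.6 in the Nedd4L-cKO and 10.0, 8.5 and 9.2 in the WT libraries, and its pileup percentiles were 31.4, 49.6, 33.7 and 36.7 against 21.9, 24.4 and 28.4. Every Nedd4L-cKO library was above every WT library in both. The region was 0.63 ± 0.16 (SE) normal-score units higher in Nedd4L-cKO by fold enrichment and 0.46 ± 0.16 (SE) by pileup (n = 4 and 3), with unadjusted p of 0.00296 and 0.0217 in limma and an adjusted p of 1.00 in both. In each library the peak lay below the median of all peaks by both measures, and the difference did not pass the adjustment.

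The next regions by p differed in direction. A region inside Tgfbr2, 22.2 kb from the start (chr9:116152672-116153618), had the fold percentiles 91.2, 88.8, 77.2 and 89.3 in the Nedd4L-cKO and 94.5, 92.0 and 96.7 in the WT libraries. All WT libraries were above all Nedd4L-cKO libraries, and the difference of Nedd4L-cKO from WT was -0.51 ± 0.21 (SE) normal-score units (unadjusted p = 0.0379, adjusted p = 1.00 in limma). By pileup its groups overlapped.

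A region downstream of Smad7, 37.8 kb from the start (chr18:75404210-75406060), had the fold percentiles 35.9, 58.7, 28.5 and 44.5 against 27.8, 24.6 and 21.6. It was 0.48 ± 0.22 (SE) higher in Nedd4L-cKO, with groups that did not overlap (unadjusted p = 0.0607, adjusted p = 1.00 in limma), and by pileup its groups overlapped.

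By pileup the second lowest p was that of the region upstream of Tgfb1 at the starts of Tmem91 and B9d2 (chr7:25680118-25681359). Its pileup percentiles were 90.6, 90.6, 91.2 and 90.1 in the Nedd4L-cKO and 94.6, 92.3 and 95.3 in the WT libraries, a difference of -0.27 ± 0.10 (SE) with groups that did not overlap (unadjusted p = 0.0259, adjusted p = 1.00 in limma). The third was a region 51.1 kb into Smad6 (chr9:63970656-63971309), at 92.3, 87.2, 80.7 and 91.4 against 80.3, 80.4 and 86.4, a difference of 0.28 ± 0.16 (SE). Its groups overlapped (unadjusted p = 0.111, adjusted p = 1.00).

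**Figure D5:**
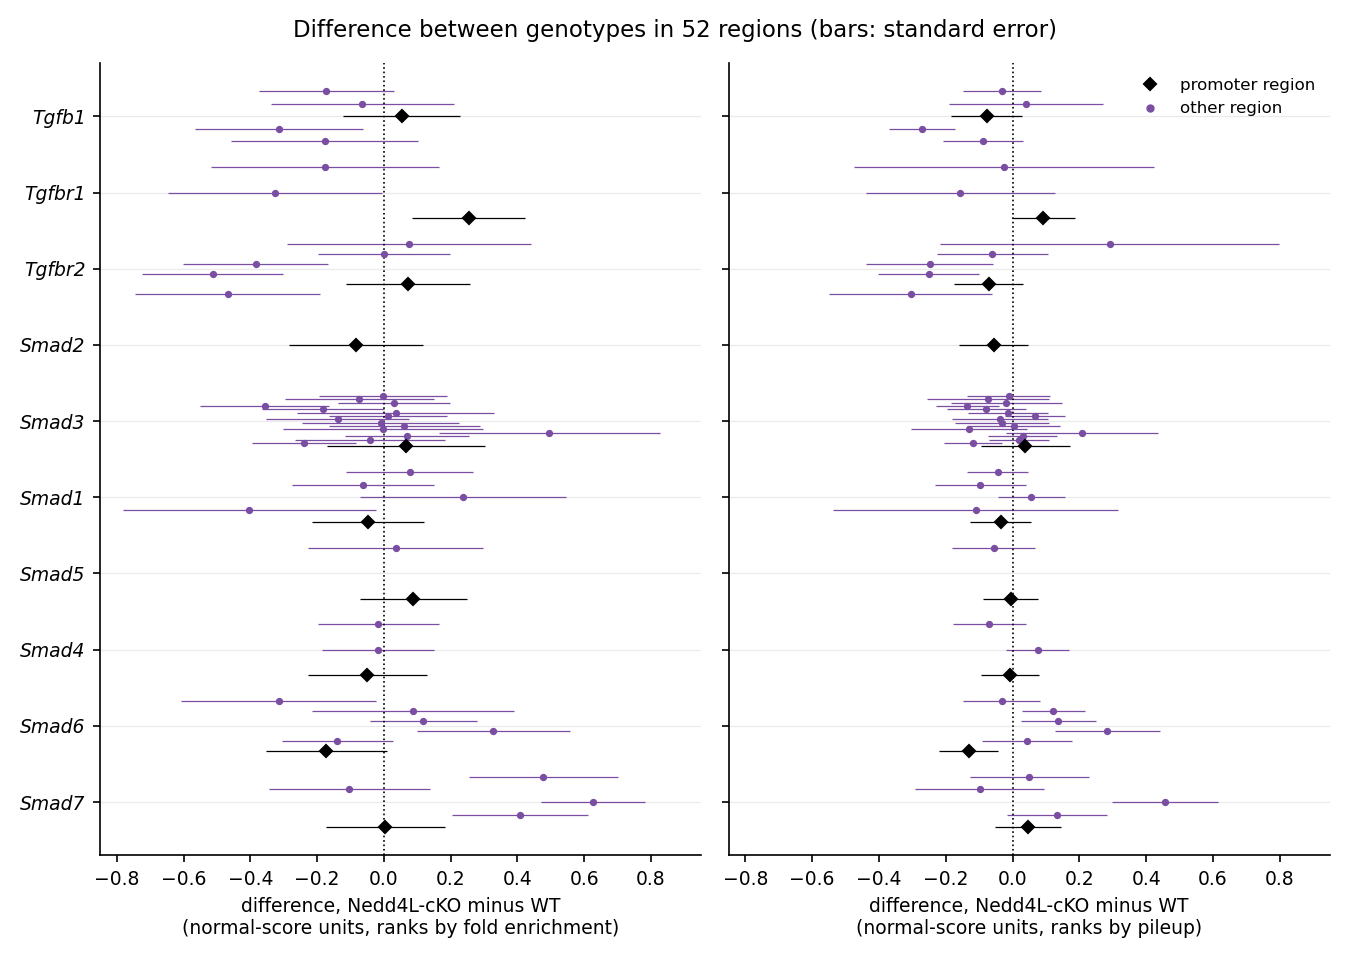
Difference between genotypes (Nedd4L-cKO minus WT, normal-score units) in the 52 regions called in all libraries, by ranks of fold enrichment (left) and pileup (right), ordered within each member by position. Black diamonds are promoter regions, purple points are other regions, and bars are standard errors from limma. Promoter differences lie between -0.17 and 0.25, and the point farthest from 0 on both sides is the region inside Smad7 at 0.63 and 0.46.

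The rest of the pathway was open at most promoters too. Of 54 genes in 7 lists around the members, 48 had a promoter peak in all 7 libraries and 6 in none, against the 63.6% of all protein-coding promoters open in all libraries, with no gene open in only some. Among other ligands 5 of 7 were open, from Tgfb3 at a median pileup percentile of 94.3 to Mstn, which encodes the muscle growth inhibitor myostatin, at 38.2, while Tgfb2 and Inhba had no promoter peak. All 8 other receptors and co-receptors were open, from the co-receptor gene Tgfbr3 at 99.2 to Eng at 51.1, and so was Smad9, the remaining Smad, at 66.6. Of the genes for latency and activation of TGF-beta 7 of 9 were open, from Ltbp3 at 92.3 to Ltbp2 at 59.9, and Ltbp4 and Itgav had no promoter peak.

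All 10 genes for Smad partners and inhibitors were open, from the corepressor gene Tgif1 at a median pileup percentile of 99.6 to Ldlrad4 at 79.7. Among ubiquitin ligases and deubiquitinases of the pathway 8 of 9 were open, from Usp15 at 93.7 to Nedd4, the nearest relative of Nedd4l, at 69.7. Nedd4l itself had no peak at the outer start of its span. Of the target genes 9 of 10 were open, from Junb at 99.9 to Postn at 67.3, and Cdkn1a had no promoter peak. The starts used here are the outer ends of the gene spans, and all 6 genes without a promoter peak had peaks elsewhere in their loci, from 1 or 2 at Inhba to 31 to 35 at Nedd4l.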

How the data were processed

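ATAC-seq libraries of 4 Nedd4L-cKO and 3 WT mice were used, grouped by their labels. The authors trimmed reads with Trimmomatic 0.39, aligned them with BWA 0.7.17 to mm10, removed duplicates with Picard 2.26.3 and called broad peaks in each library separately with MACS2 2.2.7.1, without a control. The deposited pileup is a coverage signal that is not scaled to depth, fold enrichment, as deposited, relates the pileup to the local background as a ratio, and significance was deposited as −log10 of p and q values. The deposited narrow peaks inside broad ones were counted, and a format duplicate of the broad peaks was not used.

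Peaks of all libraries were merged where they shared at least 1 bp, leaving out 2 mitochondrial peaks per library. A merged region belonged to a member if it overlapped the window. It counted as called in each library with a peak in it, even where that peak lay outside the window. Gene spans and starts (outer end of the span) were taken from RefSeq on GRCm38.p6. In each library the highest peak of a region was ranked, and normal scores of the ranks were fitted with limma 3.58.1 (R 4.3.3) over all regions called in all libraries, with Benjamini-Hochberg adjustment. Peak numbers per locus were compared by two-sided exact permutation. Both procedures were tested on simulated data. The shifts planted for limma were larger than any difference seen at the members, so the simulation does not speak to differences of that size. P-values set the difference between genotypes against the spread between these libraries. The text names all members, their promoter region, the shared region outside it with the highest median pileup percentile, the 3 regions with the lowest unadjusted p by each measure, and the highest, lowest and unopened genes of each pathway list. Members and lists were chosen with earlier results of these data known. Alternatives are given in the closing section.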

Additional observations from a re-analysis of the deposited data

Results flagged for a closer look

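In the 4 Nedd4L-cKO libraries, 3 of 50 values tested by Dixon's criterion had 1 library far from the rest, and chance marks about 1 in 20 for continuous values, a rate that does not hold for small tied counts such as these. Nedd4L-cKO replicate 4 had 5 peaks in the Tgfbr1 locus and the other 3 libraries 4 each. In the Tgfbr2 locus Nedd4L-cKO replicate 1 had 9 peaks and the others 8 each. In the Smad3 locus Nedd4L-cKO replicate 3 had 18 peaks and the others 21 each. The first and second gaps are a single peak in size, and the library that stood apart was a different one each time.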

How the results depend on the processing

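Peak lists without read counts limit these results to ranks and calls. The counts that answer the comparisons did not change under any alternative. All 10 promoters were called in every library, and no region was called in every library of 1 genotype and none of the other. No locus or region of the set passed the adjusted tests, though for loci the smallest possible p left that outcome almost fixed. The lowest adjusted p over all shared regions was 0.854 by fold enrichment and 0.529 by pileup, both with log2 of the tags kept as a covariate. Differences too small to pass a test changed sign as follows, and the cause was not tested. Counted as kb covered in place of peaks, the locus difference (Nedd4L-cKO minus WT) was 0.10 at Tgfb1, 0.31 at Tgfbr1, 0.0725 at Tgfbr2, -0.16 at Smad1, 0.37 at Smad4 and -0.11 at Smad7. In peaks, that of Smad1 was -0.25 with libraries cut to equal peak numbers and -0.50 without lane 2, and that of Smad5 was 0.25 at a −log10 q of at least 5. In normal-score units, the promoter of Smad1 was at 0.0142 without lane 2 and that of Smad7 at -0.0393 at a −log10 q of at least 5, both by fold enrichment, and Smad4 was at 1.5e-05 by pileup with the tags as covariate.

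Same-numbered libraries did not deviate together (correlations of -0.12, 0.03 and -0.12). The labels do not say whether the numbers pair libraries, and with so few libraries these correlations cannot decide it. The setting with the replicate number as a block left out Nedd4L-cKO replicate 4, which has no WT library of its number. With it 0 regions passed by either measure. The locus differences of Smad1 and Smad6 were -0.67 and -0.33 peaks, and the Smad4 promoter was at 0.0360 by fold enrichment and 0.0134 by pileup. These differences are those of leaving out that library, and the block itself does not change them.

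Leaving out 1 library at a time gave locus differences of -0.75 to 1.25 peaks at Smad3, -0.67 to 1.00 at Smad1, -0.33 to 1.33 at Smad6 and -0.33 to 1.00 at Smad7. Promoter differences by fold enrichment were then -0.0135 to 0.141 at Tgfb1, -0.0105 to 0.168 at Tgfbr2, -0.215 to 0.0383 at Smad2, -0.0756 to 0.212 at Smad3, -0.123 to 0.0142 at Smad1, -0.114 to 0.0360 at Smad4 and -0.0719 to 0.117 at Smad7. By pileup they were -0.0407 to 0.110 at Smad3, -0.0735 to 0.00449 at Smad1, -0.0298 to 0.0139 at Smad5 and -0.0379 to 0.0304 at Smad4. The differences of the 3 regions with the lowest p by each measure kept their sign under the alternatives run, and those of the other regions named outside the promoters were not recomputed singly.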
